A study of Mus musculus with 16 samples.

Results

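The genes described here encode receptors for the fast transmitters GABA, glycine and glutamate. Members were taken by symbol: every gene on the array whose symbol begins with that of a GABA-A or GABA-B receptor subunit (Gabra, Gabrb, Gabrg, Gabrd, Gabre, Gabrq, Gabbr), a glycine receptor subunit (Glra, Glrb), an AMPA, delta, kainate or NMDA receptor subunit (Gria, Grid, Grik, Grin) or a metabotropic glutamate receptor (Grm). Of 10620 genes named among the normalised probes, 20 fitted, measured by 43 probes. The 9 genes for GABA and glycine receptors are called inhibitory here and the 11 for glutamate receptors excitatory. These classes go by transmitter and not by the action of each receptor, which for metabotropic glutamate receptors such as those of Grm3 and Grm7 need not be excitatory. RefSeq holds 48 mouse genes of these names, and the others have no named probe here. Where a gene had several probes (10 of 20 genes), the one with the highest mean level was used.

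The samples were organotypic slices of the mouse suprachiasmatic nucleus (SCN) from C57BL/6J pups aged P8 to P11, cultured for 7 days before recording of bioluminescence. CT16 VIP and CT12 VIP slices received vasoactive intestinal peptide (VIP) at circadian time (CT) 10, with collection after 6 h and 2 h. The CT12 Veh group had vehicle in place of VIP, with collection after 2 h, and slices of the CT10 group had no treatment. There were 4 slices and 4 Illumina arrays in each group. The labels give VIP at 1 µM and the study's methods give a higher dose. With no vehicle arrays at CT16 among those analysed here, time after VIP and circadian time cannot be told apart in CT16 VIP. Separate animals are not stated for the slices of 1 group, so p-values measure the spread between these slices, which may be technical.

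In the SCN nearly all neurons make GABA. Fast inhibition runs through GABA-A and glycine receptors, which are chloride channels, and slow inhibition through the G-protein-coupled GABA-B receptor, a dimer of the Gabbr1 and Gabbr2 products. Glutamate, the transmitter of the retinal input that resets the clock, opens AMPA, kainate and NMDA receptor channels and also acts on metabotropic receptors. VIP is the peptide through which SCN neurons synchronise one another.

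Probes were called detected at a detection p of 0.01 or less against negative controls. The detected probes of an array numbered 8019 to 16923 in CT16 VIP, 8982 to 15326 in CT12 VIP, 8844 to 13751 in CT12 Veh and 10079 to 14681 in CT10. Fewer than 10000 were detected on CT16 VIP 3, CT16 VIP 4, CT12 VIP 1 and CT12 Veh 1. Of the 20 receptor genes, 6 to 17 were detected on an array of CT16 VIP (median 9.5), 11 to 18 in CT12 VIP, 11 to 18 in CT12 Veh and 12 to 20 in CT10. Gabbr1, Gabrg3, Glrb, Gria1, Gria2 and Gria3 were detected on all 16 arrays. At the other end, 8 genes were detected on fewer than 9 arrays, and Grik2 was detected on no CT16 VIP array. Of the SCN neuron markers, 4 of 8 were detected on all 16 arrays, with Six6 on fewer than 4, and of the pan-neuronal markers 9 of 12 were. Levels are the authors' normalised values after a variance stabilising transformation, which are log2-like and compress differences at low signal. No level is set against that of another probe.

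Over the 4 groups together, 3 of the 20 receptor genes varied, against 6.29% of all 19893 probes (limma F test, adjusted p below 0.05). They were Grm5, encoding the metabotropic receptor mGlu5 (adjusted p = 0.00172), and Gabrb1 and Gabrb2, encoding beta subunits of the GABA-A receptor (adjusted p = 0.0188 and 0.0223). Grik2, a kainate receptor subunit, and Grin3a, an NMDA receptor subunit, came next (adjusted p = 0.0729 and 0.0936). Below an unadjusted p of 0.05 were 8 genes, against 17.9% of probes. Leaving out CT16 VIP 3 ended the calls of Gabrb1 and Gabrb2 (adjusted p = 0.0993 and 0.0701), as did leaving out CT16 VIP 1 (0.0687 and 0.0516). Without the 4 arrays of fewer than 10000 detected probes, Gabrb2 alone was called, and Grm5 had an adjusted p of 0.103. With the mean of the probes of each gene, Gria2 and Grik2 were called instead (adjusted p = 0.031 and 0.0436).

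**Figure D1:**
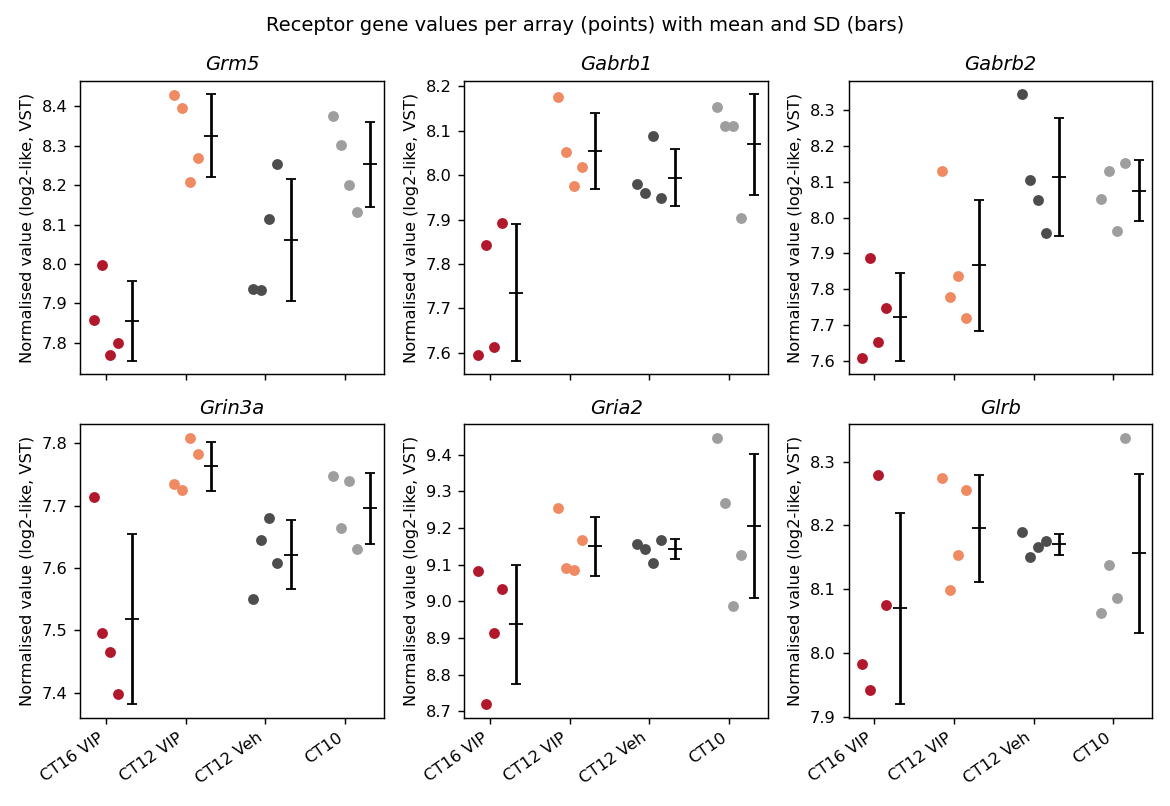
Globally normalised values (y axis, log2-like after variance stabilisation) of 6 receptor genes in CT16 VIP, CT12 VIP, CT12 Veh and CT10. Points are the 4 arrays of a group, and bars give the mean and SD. Grm5 lies between 7.77 and 7.998 in CT16 VIP, below every CT12 VIP array (8.21 to 8.43).

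No receptor gene of either class passed the test 2 h after VIP. In CT12 VIP vs. CT12 Veh, 0 of 20 receptor genes were called by limma at an adjusted p of 0.05, against 4.19% of 17605 probes, and 3 were below an unadjusted p of 0.05, against 15.2%. The 9 inhibitory genes had a median log2 difference of 0.0098 and the 11 excitatory genes one of 0.062, against -0.0087 over all probes. The arrays of the groups did not overlap for 1 gene, Grin3a, against 9.65% of probes.

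Grm5 came nearest. Its values were 8.39, 8.36, 8.16 and 8.23 in CT12 VIP, against 7.88, 7.88, 8.07 and 8.21 in CT12 Veh. CT12 Veh 4 lay within the range of the VIP arrays and the other 3 vehicle arrays lay below it. The difference was 0.27 ± 0.08 (log2 ± SE, adjusted p = 0.064, limma). Without CT12 Veh 4 it was 0.34 (adjusted p = 0.0191). With a covariate for the detected probes per array it was 0.28 (adjusted p = 0.0447). The other probes of Grm5 gave 0.15 and 0.064, with adjusted p-values of 0.332 and 0.697.

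Gabrb2 was 8.08, 7.71, 7.78 and 7.65 in CT12 VIP, against 8.30, 8.06, 8.001 and 7.90 in CT12 Veh. CT12 VIP 1, an array with few detected probes, lay among the vehicle arrays, and the other 3 lay below all of them. The difference was -0.26 ± 0.09 (adjusted p = 0.155) and, without CT12 VIP 1, -0.35 (adjusted p = 0.0204). The 2 other tested probes of Gabrb2 gave 0.050 and 0.062, of the opposite sign.

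Grin3a, whose subunit lowers calcium entry through NMDA receptors, was 7.67, 7.66, 7.75 and 7.72 in CT12 VIP, against 7.49, 7.57, 7.61 and 7.53 in CT12 Veh. Its groups did not overlap, but the difference of 0.15 ± 0.06 did not pass (adjusted p = 0.228). Its probe was named only through an older clone name. Grik2 differed by 0.12 ± 0.06 (adjusted p = 0.395), and the inhibitory subunits Gabrb1 and Gabrg3 by 0.063 ± 0.066 and 0.050 ± 0.081 (adjusted p = 0.728 and 0.838).

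**Figure D2:**
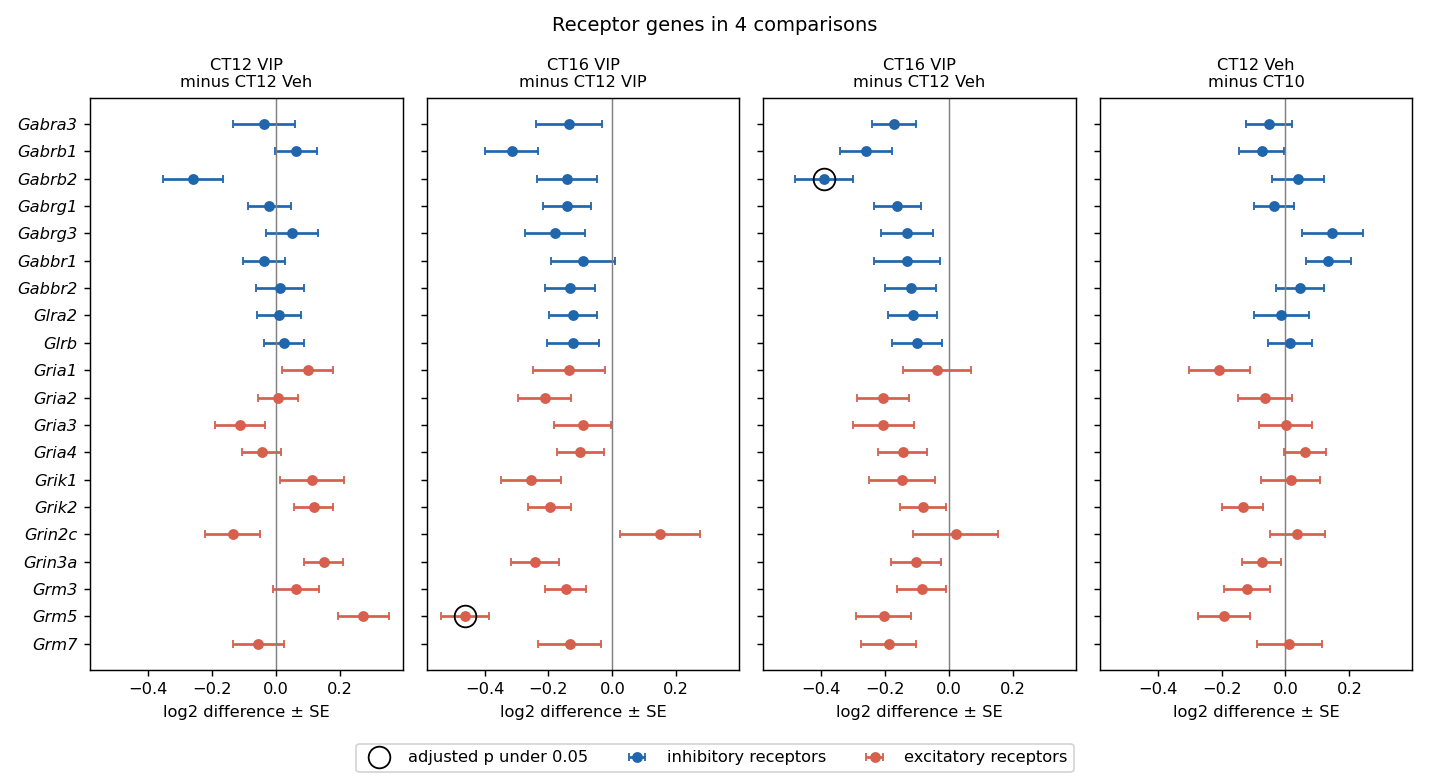
Log2 difference with its SE (x axis) for the 20 receptor genes (rows) in 4 comparisons, inhibitory receptors in blue and excitatory receptors in red. Circles mark an adjusted p below 0.05, and lie on Grm5 in CT16 VIP minus CT12 VIP and on Gabrb2 in CT16 VIP minus CT12 Veh.

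Between 2 h and 6 h after VIP, Grm5 fell and no other receptor gene passed. In CT16 VIP vs. CT12 VIP, 1 of 20 was called, against 1.79% of 19110 probes (0.958% called lower). Below an unadjusted p of 0.05 were 7, all lower in CT16 VIP, against 12.4% of probes in either direction. The levels of Grm5 were 7.86, 7.9995, 7.78 and 7.81 in CT16 VIP, against 8.43, 8.39, 8.21 and 8.27 in CT12 VIP. Every CT16 VIP array lay below every CT12 VIP array. The difference was -0.46 ± 0.08 (adjusted p = 0.00496). It kept its call when each array was left out in turn (adjusted p between 0.00592 and 0.0286). After background correction with neqc, which does not compress low signals in this way, it was -1.05 (adjusted p = 0.0209).

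The probes of Grm5 did not all move alike. Another probe gave -0.28 ± 0.08 (adjusted p = 0.137), with groups that did not overlap, and the last, detected on 1 array of each group, gave 0.063 ± 0.080 (adjusted p = 0.809). With the mean of the probes of each gene the difference was -0.23 (adjusted p = 0.134). The main probe was detected on 2 of 4 CT16 VIP arrays and on 4 of 4 CT12 VIP arrays, and was not well above background on CT16 VIP 3 and 4. Without the arrays of fewer than 10000 detected probes the difference was -0.36 (adjusted p = 0.0819).

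Gabrb1 was 7.59, 7.85, 7.62 and 7.90 in CT16 VIP, against 8.17, 8.05, 7.98 and 8.02 in CT12 VIP. Its groups did not overlap, and the difference was -0.32 ± 0.08 (adjusted p = 0.0813). Without CT16 VIP 4 the adjusted p was 0.0358, and with detected probes per array as covariate 0.0127. Its other probes gave -0.14 and -0.041.

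Grin3a was 7.72, 7.50, 7.48 and 7.41 in CT16 VIP, against 7.74, 7.73, 7.81 and 7.79 in CT12 VIP, a difference of -0.24 ± 0.08 (adjusted p = 0.158). CT16 VIP 1, the array with the most detected probes, lay just under the CT12 VIP arrays and the other 3 well under them. Grin3a was detected on CT16 VIP 1 alone of that group, so its size rests on values not well above background. Without that array the adjusted p was 0.0215, with no CT16 VIP array left on which the gene was detected. Grik2 was 7.46, 7.68, 7.54 and 7.58 in CT16 VIP, where it was not well above background on any array, against 7.77, 7.77, 7.73 and 7.77 in CT12 VIP (adjusted p = 0.214). Among the inhibitory subunits, Gabrg3 and Gabrg1 differed by -0.18 ± 0.09 and -0.14 ± 0.07 (adjusted p = 0.469 and 0.470).

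The direction was shared more widely than the calls. Between CT16 VIP and CT12 VIP, 19 of 20 receptor genes had a difference below 0, against 49.3% of all probes, and the exception was Grin2c, an NMDA receptor subunit (0.15 ± 0.13, adjusted p = 0.694). The 9 inhibitory genes had a median of -0.13 (from -0.32 to -0.091) and the 11 excitatory genes one of -0.15 (from -0.46 to 0.15), against 0.0016 over all probes. Groups did not overlap, with CT16 VIP lower, for 7 of 20 genes (Gabrb1, Gabrg1, Gria2, Grik2, Grin3a, Grm3 and Grm5), against 4.29% of probes. Counting every probe of these genes, 39 of 42 tested probes were below 0. They included all 3 probes of Gria2, an AMPA receptor subunit (-0.21, -0.28 and -0.39). A probe was tested if detected on at least 1 array compared, so it could enter through the group where it was higher. Grik2 and a further probe each of Gabrb1, Gabrb2, Gabrg1, Gria3 and Grik1 were detected on CT12 VIP arrays alone. All of these were below 0, a direction that the filter favours. With neqc 19 of 20 genes were again below 0, with a median of -0.47 against -0.030 over all probes. Without the arrays compared that had fewer than 10000 detected probes (CT16 VIP 3, CT16 VIP 4 and CT12 VIP 1), 16 of 20 were below 0. Only CT16 VIP 1 and CT16 VIP 2 then remained of their group.

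**Figure D3:**
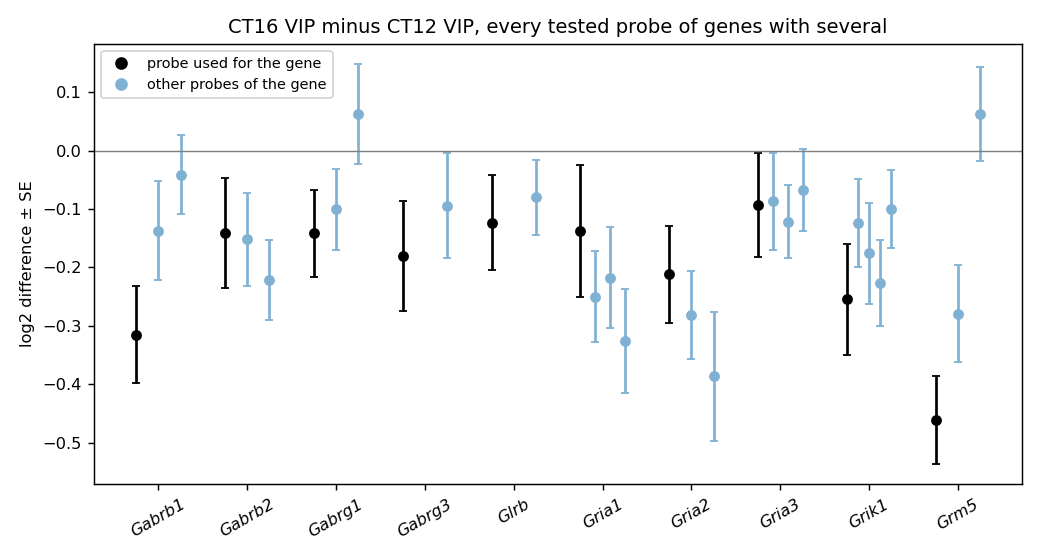
Log2 difference with its SE (y axis), CT16 VIP minus CT12 VIP, for every tested probe of the 10 receptor genes with several probes (x axis). Black points are the probes used for the genes and blue points the others. The probes of Gria2 all lie below 0, while 1 probe of Grm5 lies at 0.063.

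Detection moved with this result, since 7 and 6 receptor genes were detected on CT16 VIP 3 and 4, against 11 or more on each other array. So did the neuronal markers in part. Their mean level per gene was 8.55 to 8.65 in CT16 VIP, against 8.57 to 8.73 in CT12 VIP and 8.52 to 8.66 in CT12 Veh. Between CT16 VIP and CT12 VIP their median difference was -0.074. Of the 12, 1 (Eno2) was called lower, against 0.958% of probes. Nefl, of the 12, was detected on 1 of 4 CT16 VIP arrays and 3 of 4 CT12 VIP arrays. Medians were also below 0 for markers of oligodendrocytes (-0.072), microglia (-0.089), astrocytes (-0.052) and ependymal cells (-0.048), with 0 called. The 1 endothelial marker tested had 0.13. The SCN neuron markers had a median difference of -0.15, against -0.14 over the 20 receptor genes. Of 7 tested, limma called 0, against 1.79% of probes, and 2 were below an unadjusted p of 0.05 (Vip and Rorb), against 12.4%. Among them were the peptide genes Vip (-0.56 ± 0.16, adjusted p = 0.108) and Avp (-0.24 ± 0.12, adjusted p = 0.436), while Rorb had 0.31 ± 0.09 (adjusted p = 0.113). Their mean level per gene was 7.93 to 8.09 in CT16 VIP, against 8.004 to 8.21 in CT12 VIP. The part of these markers in the result was not tested. In whole slices fewer neurons and less receptor RNA per neuron cannot be told apart.

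Against the vehicle slices, CT16 VIP slices had less Gabrb2 RNA. In CT16 VIP vs. CT12 Veh, 1 of 20 receptor genes was called, against 3.56% of 18724 probes (1.45% called lower), and 7 were below an unadjusted p of 0.05, against 14.9%. Gabrb2 was 7.61, 7.89, 7.65 and 7.75 in CT16 VIP, against 8.34, 8.10, 8.05 and 7.96 in CT12 Veh. No CT16 VIP array reached a vehicle array. The difference was -0.39 ± 0.09 (adjusted p = 0.0238), and -1.05 with neqc (adjusted p = 0.0433). The call was lost without CT16 VIP 3 (adjusted p = 0.079), CT12 Veh 1 (0.0858), CT12 Veh 2 (0.0692) or CT12 Veh 3 (0.0541). It was also lost with the mean of its probes, at -0.22 (adjusted p = 0.0687). All 3 tested probes were below 0, the smallest difference being -0.11, and the main probe was detected on 2 of 4 CT16 VIP arrays and on 4 of 4 vehicle arrays.

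Gabrb1 was 7.59, 7.84, 7.61 and 7.89 in CT16 VIP, against 7.98, 7.96, 8.09 and 7.95 in CT12 Veh. The groups did not overlap and the difference of -0.26 ± 0.08 did not pass (adjusted p = 0.116). Gabra3, an alpha subunit of the GABA-A receptor, differed by -0.17 ± 0.07 (adjusted p = 0.236). Of the excitatory genes, Gria2 differed by -0.21 ± 0.08 (-0.28 with the mean of its probes, adjusted p = 0.046), Grm5 by -0.20 ± 0.09 and Grm7, a presynaptic metabotropic receptor, by -0.19 ± 0.09 (adjusted p between 0.235 and 0.324 for the main probes).

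Again 19 of 20 genes were below 0, against 50.9% of probes, with medians of -0.13 for the inhibitory and -0.14 for the excitatory genes. Grik2, detected on CT12 Veh arrays alone, was among the 19. This comparison shares the CT16 VIP arrays with the one before, so the counts are not independent. Groups did not overlap, with CT16 VIP lower, for 5 genes (Gabra3, Gabrb1, Gabrb2, Gabrg1 and Gria2), against 4.98% of probes. Over the 4 group means, 17 of 20 receptor genes were lowest in CT16 VIP, against 30.9% of all probes. The exceptions were Gabbr1 and Gabrg3, lowest in CT10, and Grin2c, lowest in CT12 VIP.

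The promoters of the 2 beta subunit genes are shown because these were the inhibitory genes that varied over the groups, and because VIP raises cAMP, whose response element binds CREB. In the study, a CREB inhibitor did not alter the slice response to VIP. Its authors propose that other factors at these elements, such as CREM or ATF3, may matter. Promoter windows of 300 bases (250 before and 50 after a start site) came from RefSeq on GRCm38.p6, and were at hand for 15 of the 20 genes. Grm5, Gria1, Gria3, Grik1 and Grin3a had no window and were not searched. The searches, on both strands, were for the full element TGACGTCA, for its half-site TGACG, which the full element contains, and for the E-box CACGTG bound by the clock proteins CLOCK and BMAL1. The 15 genes have 20 windows. The half-site is present in 3 of these 20 (1 each of Gabrb2, Glrb and Grik2), against 20.8% of all 32851 windows. The full element and the E-box are in 0 of the 20, against 1.79% and 7.15% of all windows. The windows printed are those of the first start site in the table, chr11:42420190-42420489 for Gabrb2 and chr5:71657671-71657970 for Gabrb1, both on the plus strand. Capitals mark CGTCA, the half-site read on the other strand, at bases 250 to 254 counted from the 5′ end.
Gabrb2: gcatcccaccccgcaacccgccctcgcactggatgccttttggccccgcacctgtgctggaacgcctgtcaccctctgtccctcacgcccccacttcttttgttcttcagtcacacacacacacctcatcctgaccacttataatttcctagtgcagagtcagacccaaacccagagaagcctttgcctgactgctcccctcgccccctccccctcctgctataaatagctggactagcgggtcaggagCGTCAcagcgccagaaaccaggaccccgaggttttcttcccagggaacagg
Gabrb1: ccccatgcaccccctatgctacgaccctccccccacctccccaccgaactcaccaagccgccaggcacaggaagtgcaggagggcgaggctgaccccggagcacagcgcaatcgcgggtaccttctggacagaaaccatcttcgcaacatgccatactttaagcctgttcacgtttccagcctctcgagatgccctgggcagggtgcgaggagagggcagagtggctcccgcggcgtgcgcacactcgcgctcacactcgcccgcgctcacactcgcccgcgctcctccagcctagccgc
The window of Gabrb1 holds none of the 3 motifs. A match is a description of the letters only.

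To see what 2 h and vehicle alone did, CT12 Veh was set against CT10. Here limma called 0 of 20 receptor genes, against 0.00594% of 16847 probes (1 probe), and 2 were below an unadjusted p of 0.05, against 6.86%. These were Gria1, an AMPA receptor subunit (-0.21 ± 0.10, adjusted p = 0.719), and Grm5 (-0.19 ± 0.08, adjusted p = 0.709). Grm5 was 7.94, 7.93, 8.11 and 8.25 in CT12 Veh, against 8.38, 8.30, 8.20 and 8.13 in CT10, and the groups overlapped. Grik2 differed by -0.13 ± 0.06, and the inhibitory genes Gabrg3, Gabbr1 and Gabrb1 by 0.15 ± 0.10, 0.13 ± 0.07 and -0.074 ± 0.070 (adjusted p between 0.719 and 0.874). No gene had groups that did not overlap, against 3.83% of probes, and 10 of 20 differences were below 0, against 50.2% of probes.

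The partner subunits did not stand out. Gabbr1 and Gabbr2 differed by -0.038 ± 0.066 and 0.013 ± 0.074 in CT12 VIP vs. CT12 Veh, and by -0.091 ± 0.100 and -0.13 ± 0.08 in CT16 VIP vs. CT12 VIP (adjusted p of 0.535 or more). Glrb, the beta subunit through which glycine receptors are anchored at synapses, was 7.99, 7.95, 8.28 and 8.07 in CT16 VIP, against 8.27, 8.10, 8.15 and 8.25 in CT12 VIP. Its groups overlapped and the difference was -0.12 ± 0.08 (adjusted p = 0.587). In the RefSeq order Glrb neighbours Gria2 on chromosome 3.

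Inhibitory and excitatory receptor genes were set against each other by the difference of their medians, inhibitory minus excitatory, with no test. It was -0.052 in CT12 VIP vs. CT12 Veh, 0.012 in CT16 VIP vs. CT12 VIP, 0.013 in CT16 VIP vs. CT12 Veh and 0.078 in CT12 Veh vs. CT10. On single arrays, with each gene centred on its mean over the 16 arrays, the same quantity had a mean of -0.027 ± 0.157 in CT16 VIP, -0.012 ± 0.039 in CT12 VIP, 0.042 ± 0.060 in CT12 Veh and -0.025 ± 0.036 in CT10 (SD, n = 4 each). The spread in CT16 VIP came from CT16 VIP 1, at -0.26, while the other 3 lay between 0.0056 and 0.098.

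On that scale the inhibitory median lay between -0.19 and -0.073 on the CT16 VIP arrays, below all arrays of CT12 VIP (-0.031 to 0.13), CT12 Veh (0.0024 to 0.10) and CT10 (-0.061 to 0.11). The excitatory median was between -0.18 and -0.13 on 3 CT16 VIP arrays and 0.065 on CT16 VIP 1, against -0.0035 to 0.080 in CT12 VIP. By these medians, from 1 probe per gene, CT16 VIP 1 was low for inhibitory and not for excitatory receptor genes. Other probes did not all share this. On CT16 VIP 1 the main probe of Gria1 was 9.37, above the CT12 VIP arrays (8.94 to 9.28). Its other probes, at 8.13, 7.92 and 8.01, lay below theirs (lowest 8.35, 8.10 and 8.11). For Gabrg3 the main probe, at 8.32, lay below the CT12 VIP arrays (8.48 to 8.88). Its other probe, at 7.87, lay above them (7.61 to 7.78).

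**Figure D4:**
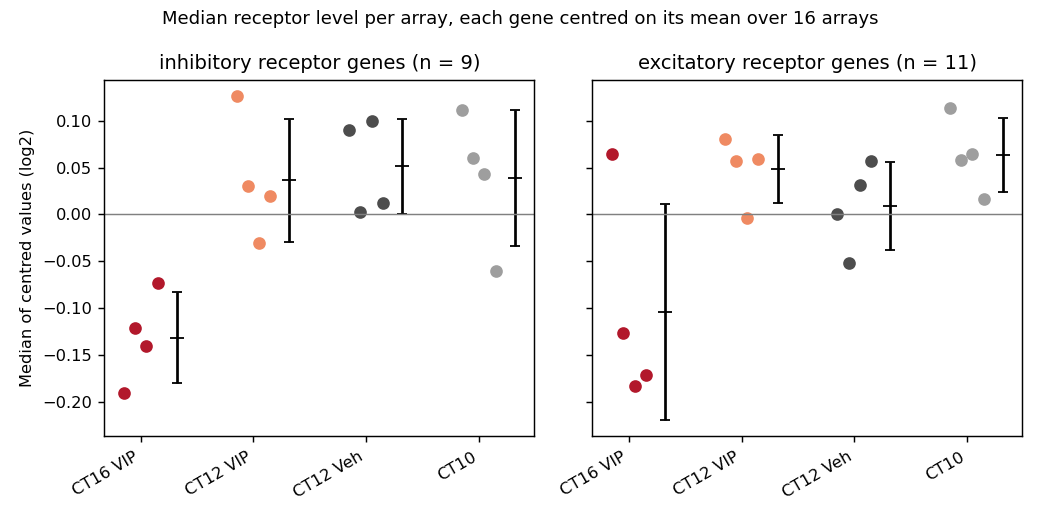
Median over 9 inhibitory (left) and 11 excitatory (right) receptor genes on each array (y axis, log2 values centred per gene over 16 arrays) in CT16 VIP, CT12 VIP, CT12 Veh and CT10. Points are arrays, and bars give the mean and SD of 4. All CT16 VIP arrays are below 0 for inhibitory genes, and 1 of 4, at 0.065, is above it for excitatory genes.

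Synaptic partners of these receptors were read from lists, first in CT12 VIP vs. CT12 Veh. Of 36 listed genes for excitatory scaffolds and auxiliary subunits, 21 were tested, and 2 were called higher and 1 lower, where 4.19% of all probes were called. Homer1, a scaffold that binds mGlu5, was higher by 0.73 ± 0.08 (adjusted p = 4.49e-06), and Pick1, which holds AMPA receptors inside the cell, was lower (-0.25 ± 0.06, adjusted p = 0.0206). Nptx1, a secreted protein that clusters AMPA receptors, was not well above background on any vehicle array and was at least 1.12-fold higher in CT12 VIP (adjusted p = 0.000579). That bound is on the transformed scale, against the lowest detected signal of each vehicle array. Homer1 was also higher in CT16 VIP vs. CT12 Veh, by 0.48 ± 0.10 (adjusted p = 0.0148) and Nptx1 at least 1.35-fold higher (adjusted p = 0.000266). For CT16 VIP vs. CT12 VIP, limma called 0 of the 21. The shares called over all probes in those 2 comparisons were 3.56% and 1.79%, and hold for the lists that follow.

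For GABA and glycine synthesis and transport and for chloride transport, 9 of 12 listed genes were tested. Gad1, which encodes a GABA-synthesising enzyme, was the only call in CT12 VIP vs. CT12 Veh, higher by 0.32 ± 0.08 (adjusted p = 0.0327). Aldh5a1, of GABA breakdown, was lower in CT16 VIP vs. CT12 Veh (-0.36 ± 0.08, adjusted p = 0.0162). For CT16 VIP vs. CT12 VIP, limma called 0 of 9, and their median was -0.17. Of 15 inhibitory scaffold and trafficking genes 10 were tested. Kctd12, an auxiliary GABA-B receptor subunit, fell in CT16 VIP vs. CT12 VIP (-0.33 ± 0.08, adjusted p = 0.0452). Its relative Kctd16 was lower in CT16 VIP vs. CT12 Veh (-0.30 ± 0.08, adjusted p = 0.0406), though detected on 1 of 4 CT16 VIP arrays and 3 of 4 vehicle arrays. Of 11 genes for glutamate synthesis and transport, 8 were tested and 0 called in the 4 comparisons.

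Some markers of other cells were also lower in VIP slices than in vehicle slices. Of 7 ependymal markers, 4 were called lower in CT12 VIP vs. CT12 Veh (Dynlrb2, Rarres2, Rsph1 and Tmem212), where 4.19% of all probes were called, and 3 in CT16 VIP vs. CT12 Veh, where 3.56% were. Their mean level was 7.99 to 8.29 in CT16 VIP, 8.17 to 8.22 in CT12 VIP, 8.35 to 8.53 in CT12 Veh and 8.10 to 8.42 in CT10. The CT10 range thus took in that of CT12 VIP. In CT12 Veh vs. CT10 the ependymal median was 0.16, with 0 of 7 called, against 0.00594% of probes. For CT12 VIP vs. CT12 Veh, limma called 0 of 7 astrocyte and 0 of 6 microglial markers. In CT16 VIP vs. CT12 Veh, 1 of 7 astrocyte markers was called lower, the water channel gene Aqp4 (-0.43 ± 0.08, adjusted p = 0.00791), and 1 of 5 microglial markers, P2ry12 (-0.41 ± 0.10, adjusted p = 0.0262), which was detected on 1 of 4 CT16 VIP arrays. The medians of those lists were -0.12 and -0.078. The SCN neuron markers had a median of -0.11 there, with Rorb called higher and Rgs16 lower. In CT12 VIP vs. CT12 Veh their median was 0.13, with Rorb called higher. Of the 12 pan-neuronal markers, 1 was called higher in CT12 VIP vs. CT12 Veh (Nefl, at least 1.02-fold) and 1 in CT16 VIP vs. CT12 Veh (Nefm). Medians of the pan-neuronal list were 0.042 and -0.041. The oligodendrocyte markers had medians of 0.11 and 0.040, with 0 of 6 called in each. The mean level of the astrocyte markers was 9.25 to 9.42 in CT16 VIP, against 9.39 to 9.53 in CT12 Veh, and that of the microglial markers 7.61 to 7.81 in CT16 VIP, against 7.80 to 7.91 in CT12 Veh. The part of all these markers in the receptor results was not tested.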

How the data were processed

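Amplified RNA of 16 slices was measured on Illumina MouseWG-6 v2 arrays. The authors deposited raw bead intensity values without normalisation and detection p-values. They also deposited log2-like values from lumi (version not given in the sources used here), filtered at a detection p of 0.01, transformed by VST and quantile normalised, separately for 2 pairs of groups (CT12 VIP and CT12 Veh, CT16 VIP and CT12 VIP) and for the 16 arrays together. Groups came from the labels. The members and lists were chosen with earlier results of these data known. Of 19893 probes, 16733 were named through RefSeq and GEO's platform table.

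Comparisons used limma 3.58.1 in R 4.3.3 on the pairwise values or, where none exist, on the global values of probes detected on at least 1 array compared. The p-values were 2-sided with Benjamini-Hochberg adjustment over all probes at 0.05. On simulated data with known changes the fits recovered what was simulated. Those changes were larger than any receptor difference in the main fits. The simulated noise was independent between arrays and probes, with no effect of depth and no detection floor. Recovery of smaller differences, or under such effects, was not tested. Genes named were the members called, the 3 inhibitory and 3 excitatory members with the smallest p in each comparison, obligate partner subunits and up to 4 called genes of each list. Others were named after their values were seen. Alternatives were neqc, log2 quantile normalisation without background correction, other filters, 1 fit of 16 arrays, a replicate block, array weights, a depth covariate, the mean of a gene's probes, unadjusted p-values and leaving out arrays. The number of arrays limits the precision.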

Additional observations from a re-analysis of the deposited data

Results flagged for a closer look

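Of 80 groups of 4 arrays (20 receptor genes in 4 groups), 4 held an array far from the other 3, about as many as the 1 in 20 that chance gives. Grik2 was the gene in 3 of them. It was 7.73 on CT12 VIP 3, against 7.76 to 7.77 on the other CT12 VIP arrays, 7.75 on CT12 Veh 3, against 7.60 to 7.62 on the other vehicle arrays, and 7.87 on CT10 1, against 7.74 to 7.75 on the other CT10 arrays. Gria4 was 7.57 on CT12 Veh 1, an array with few detected probes, against 7.65 on each of the others.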

How the results depend on the processing

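In CT12 VIP vs. CT12 Veh, 0 receptor genes were called, and 1 was with probes required on every array of 1 group, with a replicate block, or with detected probes per array as covariate (3 at an unadjusted p below 0.05, and 0 to 1 without each array). In CT16 VIP vs. CT12 VIP, the 1 call became 3 with all arrays in 1 fit and 2 with array weights or the depth covariate. It became 0 without the compared arrays under 10000 detected probes or with the mean of a gene's probes. There were 7 unadjusted, and 1 to 2 without each array. In CT16 VIP vs. CT12 Veh, the 1 call became 0 with neqc and no filter, with the replicate block or without the shallow arrays, 2 with the depth covariate, 7 unadjusted, and 0 to 1 without each array. In CT12 Veh vs. CT10, 0 became 2 unadjusted. Over the 4 groups, 3 became 1 without the shallow arrays, 8 unadjusted, and 1 to 4 without each array.

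The inhibitory minus excitatory median of CT12 VIP vs. CT12 Veh (-0.052) was 0.020 under the stricter filter and -0.091 to 0.015 without each array. That of CT12 Veh vs. CT10 (0.078) was 0.029 with array weights, 0.027 without the shallow arrays, -0.0072 with the mean of a gene's probes, and 0.0077 to 0.087 without each array. Those of CT16 VIP vs. CT12 VIP and vs. CT12 Veh changed sign over the settings that kept all groups complete or dropped the shallow arrays (-0.056 to 0.043 and -0.095 to 0.073). Gabrg3 in CT12 VIP vs. CT12 Veh (0.050) was -0.025 to 0.11 without each array, turning sign without CT12 VIP 2. The cause was not tested.

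Same-numbered arrays correlated between -0.34 and 0.27 in their deviations. The highest was that of CT12 VIP 1 with CT12 Veh 1, against at most 0.012 with another vehicle array. In CT16 VIP vs. CT12 VIP every same-numbered pair correlated negatively. The labels give these arrays no more than a shared number, and whether some numbers share a batch was not tested. With the replicate block Gabrb2 had an adjusted p of 0.0206 for CT12 VIP vs. CT12 Veh and 0.065 for CT16 VIP vs. CT12 Veh. A fit with the BeadChip as a block was not run, since the headers read here name none. Low signal limits the 8 genes detected on fewer than 9 arrays.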
